A study of Mus musculus with 46 samples.

Results

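Genomic imprinting keeps a small class of mammalian genes expressed from the copy of a single parent. The choice is written as DNA methylation at imprint control regions, CpG-rich sequences that are methylated on the chromosome of a single parent from the egg or sperm onwards. The zinc-finger protein ZFP57 binds the hexamer TGCCGC when it is methylated and keeps that methylation in early embryos and embryonic stem cells, and imprinted genes, above all the Dlk1-Dio3 cluster, are known for being disturbed in some pluripotent lines. The 10 imprinted genes described here were Dlk1, Dio3, Igf2, Igf2r, Cdkn1c, Peg3, Peg10, Mest, Grb10 and Plagl1. They were chosen by name from the 22367 protein-coding genes of the GENCODE vM1 annotation on mouse build mm9. The window of a gene ran from 5 kb before its start to 5 kb after its end.

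The data were ChIP-Seq peak lists of 3 marks. H3.3 is a histone variant that is placed in chromatin outside DNA replication, often over active genes and regulatory elements. H3K4me3 marks the starts of active genes and H3K36me3 the bodies of transcribed genes. Mouse embryonic fibroblasts (MEFs) came from E13.5 embryos with an EGFP cassette in the Oct4 locus, and retroviruses turned them into induced pluripotent stem cells (iPSCs) by way of c-Myc, Klf4, Oct4 and Sox2 (OSKM). D0 is the starting population, and the D3 cells had not been sorted. A sort on Thy-1, found on the surface of fibroblasts, gave T- and T+ cells on days 6 and 9, and a sort on SSEA-1, an early sign of pluripotency, gave S+ and S- cells on days 12 and 16. Thy-1- and SSEA-1+ cells were on course to iPSCs, and their Thy-1+ and SSEA-1- counterparts were not. ESD3 is a mouse embryonic stem cell line, which was not made by OSKM. In a separate experiment MEFs received Scl, Lmo2, Runx1 and Bmi1 by retrovirus, with H3.3 libraries from MEF (day 0), D4 (day 4) and the cKit+ and cKit- fractions labelled as fully transdifferentiated. Per the study's methods these cells shared their dish with inactivated OP9 stromal cells. H3.3 was measured in 16 libraries, and H3K4me3 and H3K36me3 in 7 each (D0, D3, the Thy-1- and SSEA-1+ cells, and iPSCs), so ESD3 and the counterparts have H3.3 only. Every group was 1 library. No difference below can be set against replicate spread, and intervals cover counting error only. The lists do not separate the maternal from the paternal copy, and in mixed cells a mark in fewer cells and less of it per cell cannot be told apart.

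Libraries held 13.2 to 91.8 M tags, and 1.07% to 42.4% of them lay in peaks. The lowest score of any peak lay between 3.54 and 6.06 tags per 10 M, and a peak also had to pass a fold over input and a p-value, so a gene without a peak was not shown to lack the mark. As a check of the labels, 7 of 7 fibroblast markers had an H3.3 peak in D0 and MEF, against 2 in iPSCs and 1 in ESD3. All 6 pluripotency markers matched had a peak in iPSCs and in ESD3, against 4 in D0 and 3 in MEF. In the cKit+ library Ptprc, Kit and Gfi1b, 3 of the 4 hematopoietic markers matched, had no H3.3 peak, but only 1.65% of its tags lay in peaks. These markers did not separate the libraries by label, since 3 of the 4 had a peak in D0 and in ESD3, and 2 in cKit-. As its label was not borne out here, the cKit+ library is called the library labelled cKit+ below.

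The H3.3 level of a gene is given as the summed score of the peaks in its window, in tags per 10 M tags of the library. The 10 genes fell into 3 kinds by their number of H3.3 peaks. Igf2r had 1 to 18 H3.3 peaks in each of the 16 libraries, and Grb10 had 4 to 29 in each except cKit-, where it had none. Cdkn1c, Peg3, Peg10, Mest and Plagl1 had 1 to 4 small peaks in most reprogramming libraries. Dlk1, Dio3 and Igf2 had a peak in few or none. Of the 10 genes, 8 had an H3.3 peak in D0, 10 in iPSCs, 7 in ESD3 and 9 in MEF, where 66.9%, 66.2%, 58.8% and 59.1% of all protein-coding genes had one.

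**Figure D1:**
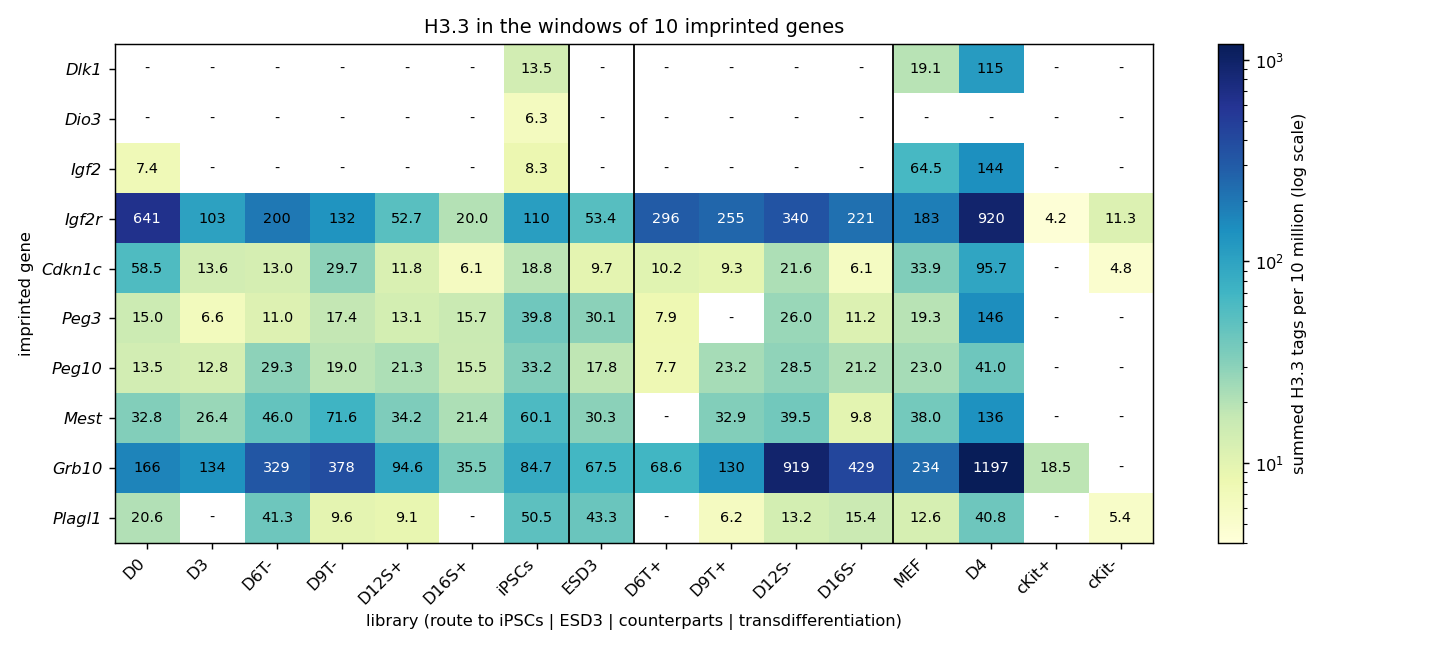
Summed H3.3 peak score (tags per 10 M, colour on a log scale, values printed) of 10 imprinted genes (rows) in 16 libraries (columns), with a dash where no peak was called. Igf2r and Grb10 were the darkest rows, Dlk1, Dio3 and Igf2 were empty in most columns, and D4 held the highest value of every gene except Dio3 and Plagl1.

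Dlk1, Dio3 and Igf2, 3 genes with little H3.3, are described first. Dlk1 (chromosome 12, 110691033 to 110701546) encodes a transmembrane protein related to Notch ligands. Dio3 (chromosome 12, 111517278 to 111519307) inactivates thyroid hormone, and Igf2 (chromosome 7, 149836673 to 149852721) is a fetal growth factor. All are expressed from the paternal copy. Their control regions lie outside the windows used here, near Meg3 and H19. Along the route, Dlk1 had no H3.3 peak from D0 to D16S+ and 13.5 tags in iPSCs (95% interval 10.2 to 17.5), in a pair of peaks that began at -4.07 and -2.60 kb from its start (minus is upstream). Over all 16 libraries Dio3 had 1 H3.3 peak, of 6.32 tags in iPSCs (4.13 to 9.26), in its exon. Igf2 had 7.42 tags in D0, none from D3 to D16S+, 8.26 in iPSCs and none in ESD3. Each single iPSCs peak at these genes was between 5.71 and 8.26 tags, and ESD3 and the 4 counterparts had none at the 3 genes.

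The fibroblasts of the other experiment differed. Igf2 had 64.5 tags in MEF (57.4 to 72.2) against 7.42 in D0 (4.53 to 11.5), a ratio of 8.69 (5.53 to 14.4). Its log2 ratio of MEF to D0 was 3.12, where the median of genes with peaks in both was -1.40. Most of it was a single peak of 52.8 tags from 9.69 to 15.23 kb after the most upstream start, in the downstream part of the gene. Dlk1 had 19.1 tags in MEF and no peak in D0. D4 reached 144 tags at Igf2 and 115 at Dlk1, and both cKit fractions had none at either gene. Both libraries are labelled as fibroblasts before induction. Per the study's methods, fibroblasts for transdifferentiation were first sorted to take out cells with hematopoietic surface markers. No such sort is described for the OSKM experiment. MEF had 7.64% of its tags in peaks and D0 19.1%. The part of the sort or of this share in the difference was not tested.

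H3K4me3 behaved otherwise at these 3 genes: each had a peak in D0 and in iPSCs. Dlk1 had 77.4 tags in D0, 45.3 in D3, 14.8 and 25.2 in the Thy-1- cells of days 6 and 9, 10.7 in D12S+, none in D16S+ and 23.1 in iPSCs. Dio3 ran from 117 in D0 to 11.3 in D9T- and no peak in D16S+, and had 64.9 in iPSCs. Igf2 fell from 158 to 8.22 in D16S+ and had 70.0 in iPSCs. So the lowest value of each of the 3 was in D16S+, the library with the smallest share of H3K4me3 tags in peaks (3.71%), and iPSCs lay between it and D0.

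Cdkn1c (chromosome 7, 150644255 to 150646955) encodes the cell-cycle inhibitor p57Kip2 and is expressed from the maternal copy. Its H3.3 was 58.5 tags in D0, 13.6 in D3, 13 and 29.7 in the Thy-1- cells of days 6 and 9, 11.8 and 6.13 in the SSEA-1+ cells of days 12 and 16, 18.8 in iPSCs and 9.71 in ESD3. D0 was the highest of these 8, and the 4 counterparts had 6.10 to 21.6. The largest D0 peak, of 39.9 tags, spanned the start, from -1.92 to 1.08 kb. iPSCs were 3.10-fold below D0 (2.35 to 4.13) and ESD3 6.02-fold below (3.81 to 10.0).

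Igf2r, the receptor that clears Igf2 from the cell surface and is expressed from the maternal copy, had the highest summed H3.3 in D0. Per kb of window that was 6.59 tags in D0, 1.13 in iPSCs and 0.549 in ESD3, beside 4.60 at Cdkn1c in D0 and 1.72 at Mest in iPSCs. The gene (chromosome 17, 12875272 to 12962530, minus strand) also holds the start of Airn, the antisense RNA that silences the paternal Igf2r copy. That start lies 28.27 kb into Igf2r, inside an intron, and is the imprint control region of the locus. The H3.3 sum was 641 tags in D0, 103 in D3, 199.6 and 132 in the Thy-1- cells of days 6 and 9, 52.7 and 20.0 in the SSEA-1+ cells of days 12 and 16, 109.7 in iPSCs and 53.4 in ESD3. In the counterparts it was 296 and 255 on days 6 and 9, and 339.7 and 221 on days 12 and 16. Every counterpart was above the cells on course of its day, by 1.49-fold on day 6 (1.33 to 1.66), 1.94-fold on day 9 (1.71 to 2.20), 6.44-fold on day 12 (5.32 to 7.87) and 11-fold on day 16 (7.90 to 15.8). For all genes, the median log2 ratio of the cells on course to their counterpart was 0.88, 0.29, -1.67 and -1.43 on these days, so on days 6 and 9 Igf2r went against most genes.

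The positions of these peaks differed too. D0 had 16 H3.3 peaks over 43.1 kb of the Igf2r window, iPSCs 5 peaks over 8.66 kb and ESD3 2 peaks over 3.62 kb. The peak over the Airn start held 162 of the 641 tags in D0, 70.8 of 109.7 in iPSCs and 46.7 of 53.4 in ESD3. H3.3 peaks that reached within 1 kb of the start of Igf2r itself held 19.3 tags in D0, and iPSCs and ESD3 had no such peak. Counting every annotated start in the window, 43.4% of the Igf2r score lay in peaks within 1 kb of a start in D0, 83.0% in iPSCs and 87.4% in ESD3, against 18.6% in D6T-, 17.4% in D9T-, 20.7% in D6T+ and 13.8% in D9T+. It was 79.7% in D12S+ and 44.0% in D16S+, beside 37.6% in D12S- and 35.4% in D16S-. H3.3 over the rest of the gene was 363 tags in D0, 18.7 in iPSCs and 6.71 in ESD3.

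Grb10 (chromosome 11, 11830511 to 11938686) encodes an adaptor that binds insulin-family receptors, and it is unusual in that its main transcript comes from the maternal copy while a transcript from downstream starts in neurons comes from the paternal copy. Its H3.3 was 166 tags in D0, 134 in D3, 329 and 378 in the Thy-1- cells of days 6 and 9, 94.6 and 35.5 in the SSEA-1+ cells of days 12 and 16, 84.7 in iPSCs and 67.5 in ESD3. The counterparts had 68.6 and 130.1 on days 6 and 9, and 919 and 429 on days 12 and 16. Unlike Igf2r, Grb10 was 4.79-fold higher in D6T- than in D6T+ (4.02 to 5.73) and 2.91-fold higher in D9T- than in D9T+ (2.56 to 3.31). It was 9.71-fold lower in D12S+ than in D12S- (8.44 to 11.2) and 12.1-fold lower in D16S+ than in D16S- (9.41 to 15.8). D6T- and D9T- were above D0, and iPSCs and ESD3 were 1.96-fold (1.70 to 2.26) and 2.46-fold (2.03 to 2.98) below D0. When scores were divided by the summed score of the library, Grb10 in ESD3 came out slightly above D0 (log2 ratio 0.07). In D0, 138 of the 166 tags lay over 1 kb from any start, in peaks from 61.58 kb into the gene to past its end.

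**Figure D2:**
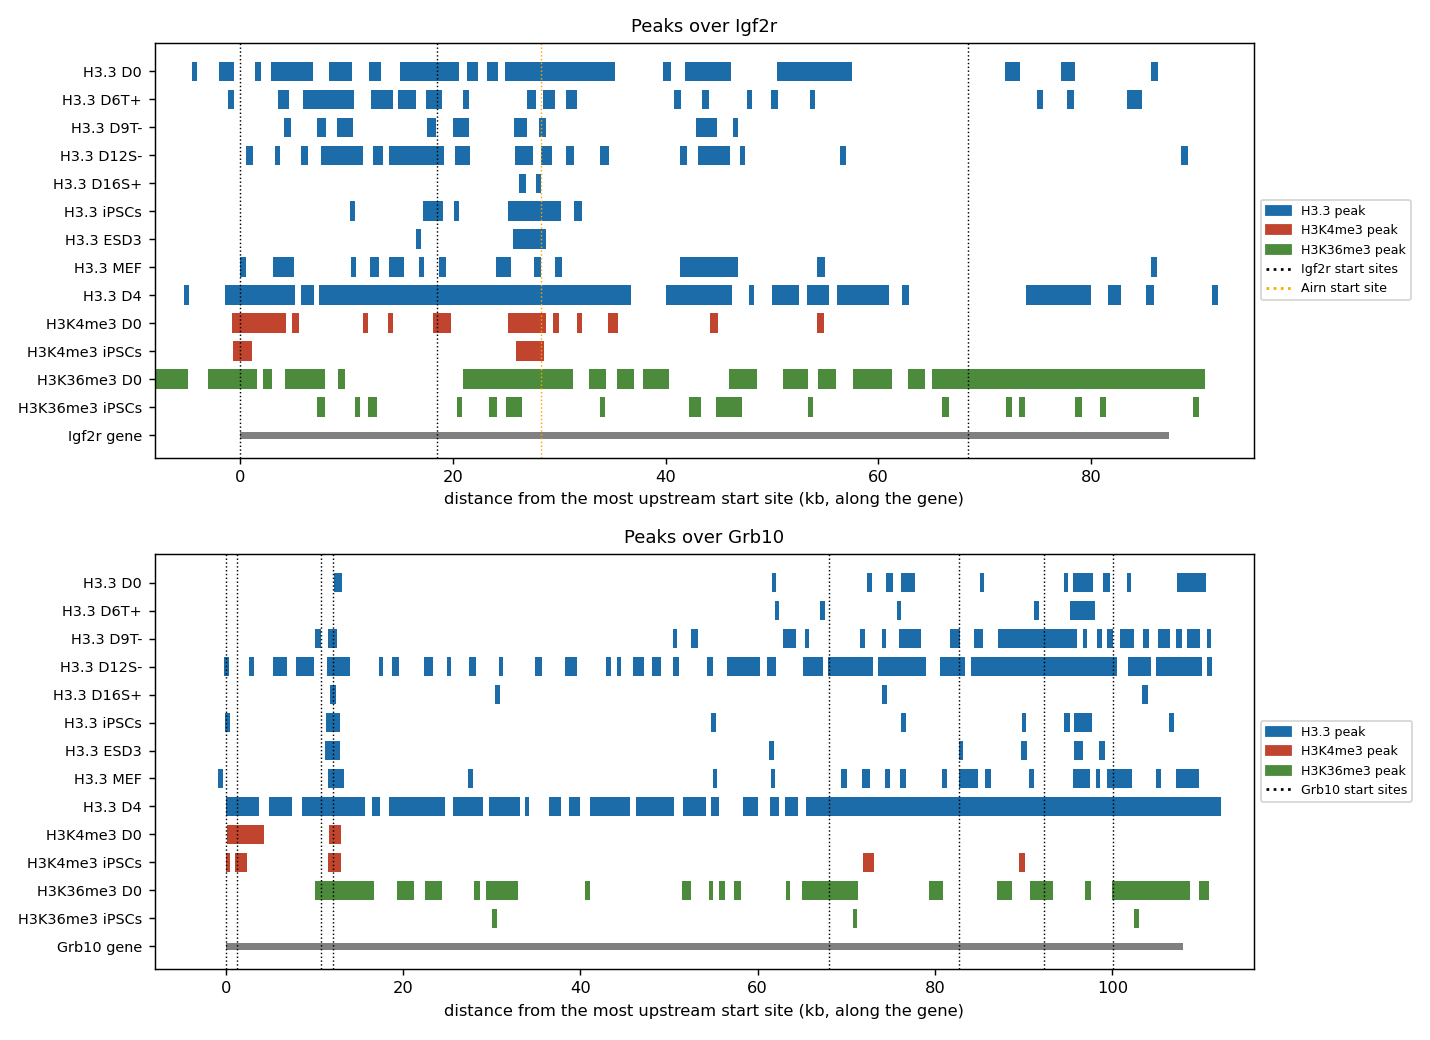
Called peaks over Igf2r (top) and Grb10 (bottom) by distance from the most upstream start in kb, with H3.3 in blue, H3K4me3 in red and H3K36me3 in green, and annotated starts as dotted lines. In iPSCs and ESD3 the longest H3.3 peak over Igf2r covered the Airn start. Over Grb10 both had a peak that reached within 1 kb of the downstream starts at 10.71 to 12.36 kb. D12S- and D4 carried peaks along most of Grb10.

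The windows of Igf2r and Grb10 also differed in H3K36me3. Igf2r had 1261 tags in D0, 358 in D3, 212 and 1745 in the Thy-1- cells of days 6 and 9, 34.1 and 26.9 in the SSEA-1+ cells of days 12 and 16, and 179 in iPSCs. Grb10 had 791, 277, 129, 1277, 32.5, 28.8 and 23.3 in the same order. Both were highest in D9T-, Igf2r was lowest in D16S+ and Grb10 in iPSCs. The libraries themselves moved in the same way, with 31.3% of H3K36me3 tags in peaks in D0, 42.4% in D9T-, 1.07% in D12S+ and 2.88% in iPSCs, and an estimated fragment length of 444 bp in D6T-. The share of these gene differences that goes with the libraries was not tested. In D0, 160 of the Igf2r tags lay in its upstream flank, and the overlapping window of Airn held 945 tags. The part of Airn in the Igf2r values was not tested.

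Peg3 (chromosome 7, 6656603 to 6683132), Peg10 (chromosome 6, 4697306 to 4710514), Mest (chromosome 6, 30673547 to 30698457) and Plagl1 (chromosome 10, 12810497 to 12851500) are expressed from the paternal copy. Peg3 and Plagl1 encode zinc-finger proteins, Peg10 derives from a retrotransposon and is needed in the placenta, and Mest encodes a protein of the hydrolase fold family. Their summed H3.3 was higher in iPSCs than in D0, but with peaks of at least 4-fold over input only, Peg10, Mest and Plagl1 had a peak in D0 and none in iPSCs, and Peg3 alone was higher. Peg3 had 15.0 tags in D0 and 39.8 in iPSCs, 2.65-fold more (1.87 to 3.84). Peg10 had 13.5 and 33.2, 2.46-fold more (1.70 to 3.65). Plagl1 had 20.6 and 50.5, 2.45-fold more (1.82 to 3.36). Mest, at 32.8 and 60.1, was 1.83-fold higher (1.43 to 2.36) and short of 2-fold. ESD3 had 30.1 tags at Peg3 and 43.3 at Plagl1, 2.01-fold (1.33 to 3.05) and 2.10-fold (1.49 to 2.99) above D0, while Peg10 (17.8) and Mest (30.3) had ratios to D0 whose intervals included 1.

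Between D0 and iPSCs these 4 genes took no common course. Peg3 ran from 6.58 tags in D3 to 17.4 in D9T-, and Peg10 from 12.8 in D3 to 29.3 in D6T-. Mest was highest of the route in D9T- at 71.6 and lowest in D16S+ at 21.4. Plagl1 had 41.3 in D6T-, 9.58 in D9T-, 9.11 in D12S+ and no peak in D3 or D16S+. Part of the Plagl1 sum came from an intronic stretch 15.02 to 19.45 kb into the gene. That stretch had a peak in D6T-, D9T-, iPSCs, ESD3, D9T+ and D16S-, with 21.4 tags in D6T- and 19.9 and 11.3 in the pair of iPSCs peaks, and none in D0, MEF or D4.

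Taking the 10 genes against all genes, 5 were higher in iPSCs than in D0 by 2-fold or more or had a peak in iPSCs only (Peg3, Peg10, Plagl1, and Dlk1 and Dio3 by presence), where 24.1% of all 16953 genes with a peak were. The calls by presence were small, 6.32 tags at Dio3 and 13.5 in 2 peaks at Dlk1, where the lowest peak score of D0 was 4.82. The iPSCs library had 41.2 M tags and D0 27.0 M. Igf2r and Cdkn1c, 2 of 10, were lower, where 40.0% of all genes were. The median log2 ratio over the 8 imprinted genes with peaks in both libraries was 0.51, against -0.51 over all genes. Held to the same number of best-scoring peaks per list, 3 of the 7 left were higher (28.2% of all genes). With peaks of at least 4-fold over input only, 1 gene was higher (Peg3) and 5 lower (Igf2r, Cdkn1c, Peg10, Mest, Plagl1) of the 8 left, and all genes moved as well, to 11.7% higher and 77.9% lower. Against MEF in place of D0, Dio3, Peg3 and Plagl1 were higher (3 genes, 52.3% of all genes) and Igf2 and Grb10 lower (2 genes, 19.7%). At a fold of at least 4, 0 of the 4 left were lower than in MEF (8.07%), and after scaling to the summed score 5 were (28.4%). The median log2 ratio of iPSCs to MEF was -0.50 over 9 imprinted genes and 0.86 over all genes, the reverse of the order against D0. For MEF to D0 the medians were 0.29 over 8 imprinted genes and -1.40 over all genes. In ESD3 against D0, 2 were higher (Peg3, Plagl1; 14.3%) and 4 lower (Igf2, Igf2r, Cdkn1c, Grb10; 63.8%) of the 8 with a peak. Scaling raised the first count to 4 (26.2% of all genes), and by covered kb it was 0 (13.9%).

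Between the pluripotent libraries, 4 of 10 were higher in iPSCs than in ESD3 (Dlk1, Dio3 and Igf2 by presence, Igf2r at 2.05-fold, 1.67 to 2.54), where 52.5% of all genes were, and 0 were lower, where 9.38% were. The median log2 ratio was 0.90 for the 7 imprinted genes with peaks in both and 0.91 for all genes. iPSCs had 41.2 M tags and ESD3 21.6 M. With each list held to the same number of best-scoring peaks 0 were higher (47.6% of all genes) and 1 lower (17.5%) of the 7 left. The direction of this comparison turned at a fold over input of at least 4, where 1 was higher (20.9%) and 5 were lower (57.1%; Igf2r at a log2 ratio of -3.42), and the median of all genes turned too, to -0.57.

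MEF and D0, both fibroblasts before induction, differed at 3 of 9 genes, with Dlk1 and Igf2 higher (6.38% of all genes) and Igf2r lower at 3.49-fold (3.22 to 3.80; 67.1%). At a fold of at least 4, 0 were higher (1.07%) and 8 of the 8 left lower (98.1%), and after scaling 6 were higher (16.2%) and 0 lower (32.4%). Within the transdifferentiation series 8 of 9 genes were higher in D4 than in MEF, where 95.1% of all genes were, and 0 lower (1.4%), so the count says little about these genes. The median log2 ratio of all genes was 2.56, and that of the 9 imprinted genes was 1.84. The rise was 5.01-fold at Igf2r (4.67 to 5.39), 5.12-fold at Grb10 (4.80 to 5.46) and 7.55-fold at Peg3 (6.08 to 9.49), and 1.78-fold at Peg10 (1.42 to 2.25). The library labelled cKit+ had a peak at Igf2r (4.25 tags) and Grb10 (18.5 tags), and cKit- at Igf2r (11.3), Cdkn1c (4.85) and Plagl1 (5.43). These libraries had 1.65% and 2.31% of their tags in peaks, against 37.2% in D4.

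In the sorted pairs, 4 of 7 genes were higher in D6T- than in D6T+ (50.2% of all genes) and 0 lower (7.9%). On day 9, 4 of 7 were higher (25.9%) and 0 lower (11.7%). In D12S+ against D12S- 0 were higher (3.79%) and 2 of 7 lower (79.9%), and 3 of 7 were lower (68.4%) and 1 higher (9.64%) in D16S+ than in D16S-. Mest and Grb10 were the genes higher on both early days. Igf2r and Grb10 were lower on both late days. The single gene higher in D16S+ was Mest, at 21.4 against 9.76 tags (ratio 2.19, 1.25 to 3.95).

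H3K4me3 was present at all 10 genes in D0 and iPSCs, where 73.4% and 72.0% of all genes had a peak, and 9 of 10 were lower in iPSCs by 2-fold or more, where 70.8% of all genes were, and 0 of 10 higher, where 5.57% were. Igf2r fell most, from 512 to 99.1 tags (5.16-fold, 4.59 to 5.82), and Dio3 least, from 117 to 64.9 (1.80-fold, 1.52 to 2.14). Mest went from 155 to 39.4, Peg3 from 169 to 49.2 and Grb10 from 223 to 70.3. The median log2 ratio was -1.58 for the 10 genes and -1.37 for all genes. By covered kb, 3 of 10 were lower by 2-fold (21.5% of all genes). When scores were divided by the summed score of the library, which moved the median of all genes to -0.12, 1 of 10 was (16.2%). At this scale Dio3, Cdkn1c, Peg10 and Igf2 came out above D0 (log2 0.41, 0.24, 0.23 and 0.08).

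H3K36me3 had peaks in D0 at Igf2r, Grb10, Peg3, Mest and Plagl1, with 131 tags at Peg3, 35.4 at Mest and 6.51 at Plagl1; 55.1% of all genes had a peak in D0 and 39.9% in iPSCs. All 5 were lower in iPSCs, where 89.0% of all genes were lower. After scaling 2 were lower (44.7% of all genes), and Igf2r and Mest came out above D0 (log2 0.63 and 1.51). Igf2 (7.83 tags), Cdkn1c (17.9) and Peg10 (15.0) had a peak in iPSCs and none in D0, where 6.35% of all genes were higher. By their midpoints, the Igf2 peak lay in the upstream flank and the Cdkn1c peak in the downstream flank. With the gene body alone 2 genes were higher (6.85% of all genes). Dlk1 and Dio3 had none in any of the 7 libraries. The iPSCs library had 24.3 M tags, close to the 24.6 M of D0, but 26697 peaks against 57288. In D0, 42.0% of the H3.3 bases in the 10 windows were also covered by H3K36me3 and 30.3% by H3K4me3, while in iPSCs 4.70% were covered by H3K36me3 and 45% by H3K4me3. The bases shared with H3K36me3 were 23.4 kb at Igf2r and 4.33 kb at Grb10 in D0, and 1.62 kb at Igf2r in iPSCs. No other gene shared any in D0, and in iPSCs only Igf2r did. The same shares over all genes were not computed.

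**Figure D3:**
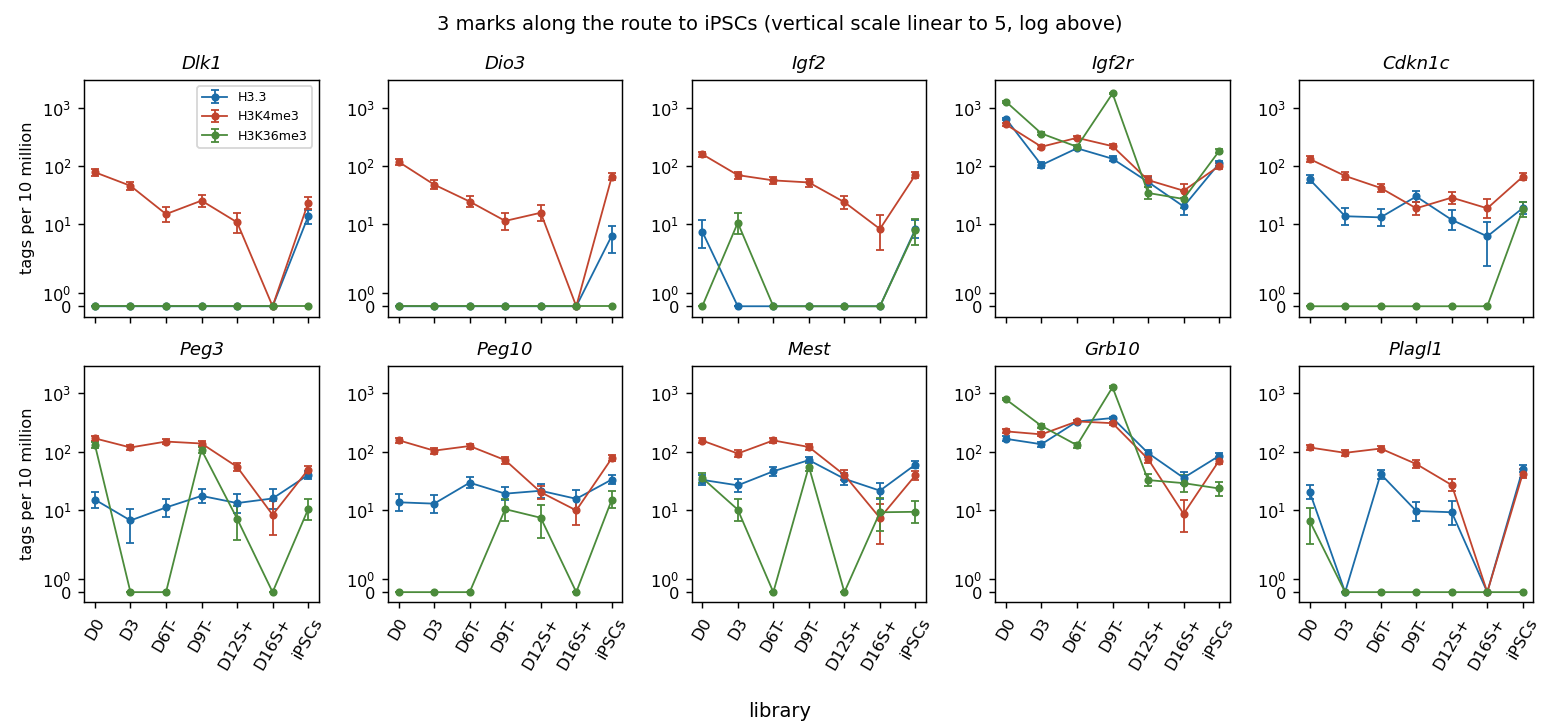
Summed peak scores (tags per 10 M, linear below 5 and log above) of H3.3, H3K4me3 and H3K36me3 for each gene in the 7 libraries from D0 to iPSCs, with exact Poisson 95% intervals from the tag counts. H3K4me3 was lowest in D16S+ at 9 of 10 genes and higher again in iPSCs, and H3K36me3 at Igf2r and Grb10 was highest in D9T-.

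Imprint control regions that are methylated on the maternal copy lie at a start inside 6 of the windows: the Airn start in Igf2r, the starts of Peg3, of Peg10 with its divergent partner Sgce, of Plagl1, the downstream starts of Grb10 at 10.71 to 12.36 kb, and the start of the main Mest transcript at 14.50 kb. These 6 were singled out from textbook knowledge after the peak values had been seen. All 6 had an H3.3 peak within 1 kb in D0 (where 46.2% of all protein-coding genes had a peak at a start), D6T- (44.2%), D12S+ (33.0%), iPSCs (49.4%), ESD3 (29.8%), D12S- (50.6%), MEF (37.6%) and D4 (63.8%). In D9T- (43.3%), D16S+ (26.7%) and D16S- (42.0%) 5 of the 6 had one, and in D3 (38.0%) 4. The lowest counts of the reprogramming series were in the Thy-1+ cells, with 3 in D6T+ (33.7%) and 2 in D9T+ (37.8%). The library labelled cKit+ had 0 (11.9%) and cKit- 1 (13.4%).

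Each start was given the whole score of every peak that reached within 1 kb of it. The Airn start had 162 tags in D0 (147 to 178), 7.17 in MEF (4.95 to 10.0), 70.8 in iPSCs (62.9 to 79.4) and 46.7 in ESD3 (38.0 to 56.7). The peak there was 10.3 kb long in D0, 0.637 kb in MEF, 5.0 kb in iPSCs and 3.12 kb in ESD3, so the scores rank as the lengths do. Grb10 had 14.1 in D0, 28.7 in MEF, 19.8 in iPSCs and 24.3 in ESD3. Plagl1 had 14.1 in D0, 12.6 in MEF, 19.3 in iPSCs and 18.5 in ESD3. The interval of the ratio of iPSCs to ESD3 included 1 at Peg3, Grb10 and Plagl1, and iPSCs were higher at the Airn start (1.52-fold), Peg10 (1.87-fold, 1.30 to 2.74) and Mest (1.98-fold, 1.51 to 2.65). The median log2 ratio of ESD3 to D0 was 0.40 over the 6 starts, and -1.17 over the 5271 genes with start peaks in both. For iPSCs to D0 the medians were 0.68 and -0.06, for iPSCs to MEF 1.11 and 0.73, and for MEF to D0 -0.45 and -0.80. For iPSCs to ESD3 they were 0.50 and 1.12, so there the starts were below all genes. Peg3, Peg10, Grb10 and Plagl1 had only 13.5 to 15.0 tags in D0, and a start that loses its peak drops out of such medians. The Airn start was lower than in D0 in iPSCs (2.29-fold) and in ESD3 (3.47-fold), while in iPSCs the other 5 were higher by value. At a fold over input of at least 4, all 6 starts had a peak in D0 and in ESD3, where 34.5% and 19.6% of genes did, but 2 in iPSCs (12.2%) and 0 in MEF (0.961%).

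**Figure D4:**
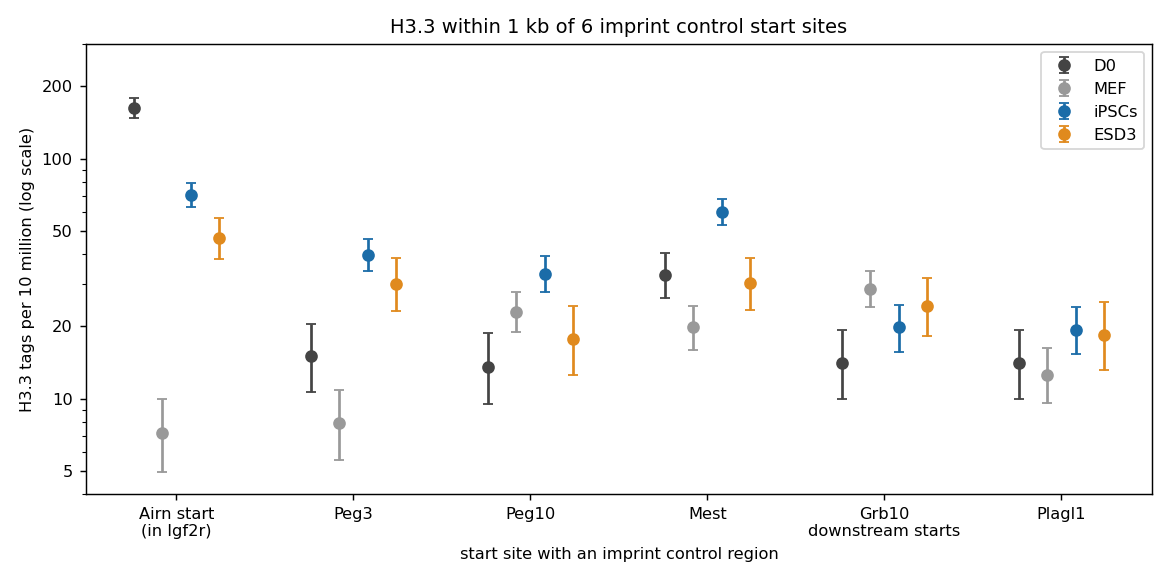
H3.3 score (tags per 10 M, log scale) of whole peaks that reached within 1 kb of 6 starts that hold maternally methylated control regions, in D0, MEF, iPSCs and ESD3, with exact Poisson 95% intervals. Each of the 4 libraries has a peak at each start, and the widest gap is at the Airn start, from 7.17 in MEF to 162 in D0. The peak there was 0.637 kb long in MEF and 10.3 kb in D0.

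At these starts H3K4me3 was also found in D0 and in iPSCs at all 6, and in D16S+ at 3 (66.6%, 64.9% and 46.5% of all genes). From D0 to iPSCs it went from 169.6 to 53.5 tags at the Airn start, from 109 to 42.1 at Plagl1 and from 24.5 to 16.2 at Grb10. The median log2 ratio of iPSCs to D0 was -1.52 over the 6 and -1.44 over all genes with start peaks in both. At the Grb10 and Plagl1 starts the interval of the H3.3 ratio of iPSCs to D0 included 1.

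The D0 H3K4me3 peaks were then read for TGCCGC, the ZFP57 hexamer, on both strands of the mm9 sequence. TGCCGC and its complement GCGGCA were searched, and matches that overlap were each counted. The Mest peak held 12, at 2.65 per kb, the Airn peak 8 (2.23 per kb), the Peg3 peak 8 (1.65 per kb), the Plagl1 peak 6 (2.52 per kb) and the downstream Grb10 peak 4 (2.95 per kb in 1.35 kb). Of 10064 D0 H3K4me3 peaks of 2 kb or more at protein-coding starts, 70.2% held at least 1, with a median of 0.356 per kb and a 95th percentile of 1.28. The Peg10 peak, at 0.68 per kb, was below that percentile, as were the peaks at the starts of Igf2r (0.395), Dio3 (0.684), Igf2 (0.684), Cdkn1c (0.917) and Grb10 (1.18). In the 300 bases from 250 before to 50 after a start, 14.2% of 70051 starts of all protein-coding genes and 22 of 61 starts of the 10 genes held the hexamer, and these 61 overlap each other. A match is a string of letters and does not show binding.

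The stretches of 300 bases that hold the most matches, outside exons, are shown for the Airn start, Mest, Peg3 and Plagl1, which passed the 95th percentile, and for Peg10, which did not, so that the spacing of the hexamers can be compared. Capitals mark TGCCGC or GCGGCA. All are on the plus strand of mm9 and lie in introns: Igf2r at chr17:12935005-12935304, Mest at chr6:30687560-30687859, Peg3 at chr7:6682151-6682450, Plagl1 at chr10:12810831-12811130 and Peg10 at chr6:4697777-4698076.
Airn start in Igf2r: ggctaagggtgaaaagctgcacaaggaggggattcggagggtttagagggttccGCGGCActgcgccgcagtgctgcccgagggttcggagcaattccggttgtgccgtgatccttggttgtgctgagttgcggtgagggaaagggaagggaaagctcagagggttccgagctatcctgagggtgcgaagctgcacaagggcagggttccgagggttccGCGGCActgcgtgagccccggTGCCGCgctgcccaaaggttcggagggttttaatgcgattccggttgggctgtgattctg
Mest: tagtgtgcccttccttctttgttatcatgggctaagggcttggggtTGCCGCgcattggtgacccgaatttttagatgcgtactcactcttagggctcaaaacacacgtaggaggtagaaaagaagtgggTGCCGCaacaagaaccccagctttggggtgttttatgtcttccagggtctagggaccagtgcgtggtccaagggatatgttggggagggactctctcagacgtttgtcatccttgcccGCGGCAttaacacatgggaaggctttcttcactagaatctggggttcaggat
Peg3: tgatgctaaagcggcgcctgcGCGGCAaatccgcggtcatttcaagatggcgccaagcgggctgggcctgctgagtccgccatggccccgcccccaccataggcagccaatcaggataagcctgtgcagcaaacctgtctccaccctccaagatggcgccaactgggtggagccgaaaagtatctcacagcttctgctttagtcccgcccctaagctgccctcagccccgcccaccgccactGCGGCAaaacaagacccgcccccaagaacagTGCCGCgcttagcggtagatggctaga
Plagl1: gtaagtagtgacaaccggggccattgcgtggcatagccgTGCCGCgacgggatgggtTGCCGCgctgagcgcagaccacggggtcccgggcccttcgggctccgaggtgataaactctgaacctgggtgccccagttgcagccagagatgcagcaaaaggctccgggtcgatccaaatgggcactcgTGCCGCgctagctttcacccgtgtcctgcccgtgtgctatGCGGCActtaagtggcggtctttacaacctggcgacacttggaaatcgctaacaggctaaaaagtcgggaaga
Peg10: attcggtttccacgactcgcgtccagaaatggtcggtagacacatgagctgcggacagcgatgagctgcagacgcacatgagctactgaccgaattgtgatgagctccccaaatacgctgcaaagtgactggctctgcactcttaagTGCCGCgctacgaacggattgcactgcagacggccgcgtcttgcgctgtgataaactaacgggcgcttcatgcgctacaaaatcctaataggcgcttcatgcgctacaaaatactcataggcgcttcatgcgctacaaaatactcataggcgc
The Plagl1 stretch holds 4 matches, the Airn, Mest and Peg3 stretches 3 each and the Peg10 stretch 1. The densest stretches of the Dio3 peak and of the Grb10 start peak, not shown, hold 3 each. Among the start peaks of 2 kb or more, 6.18% have a stretch with at least 3 and 1.46% one with at least 4, exons included. The H3.3 peaks of D0, iPSCs and ESD3 cover the whole printed stretch at the Airn start, Mest, Peg3 and Plagl1. The H3.3 peaks of iPSCs held 12 of the hexamers at Mest, 8 of 8 at the Airn start, 7 of 8 at Peg3, 6 of 6 at Plagl1, 4 of 4 at the downstream Grb10 starts and 2 of 3 at Peg10. They held 1 of 3 at Cdkn1c, 0 of 5 at the Grb10 start, 0 of 4 at Dio3 and 0 of 3 at Igf2.

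**Figure D5:**
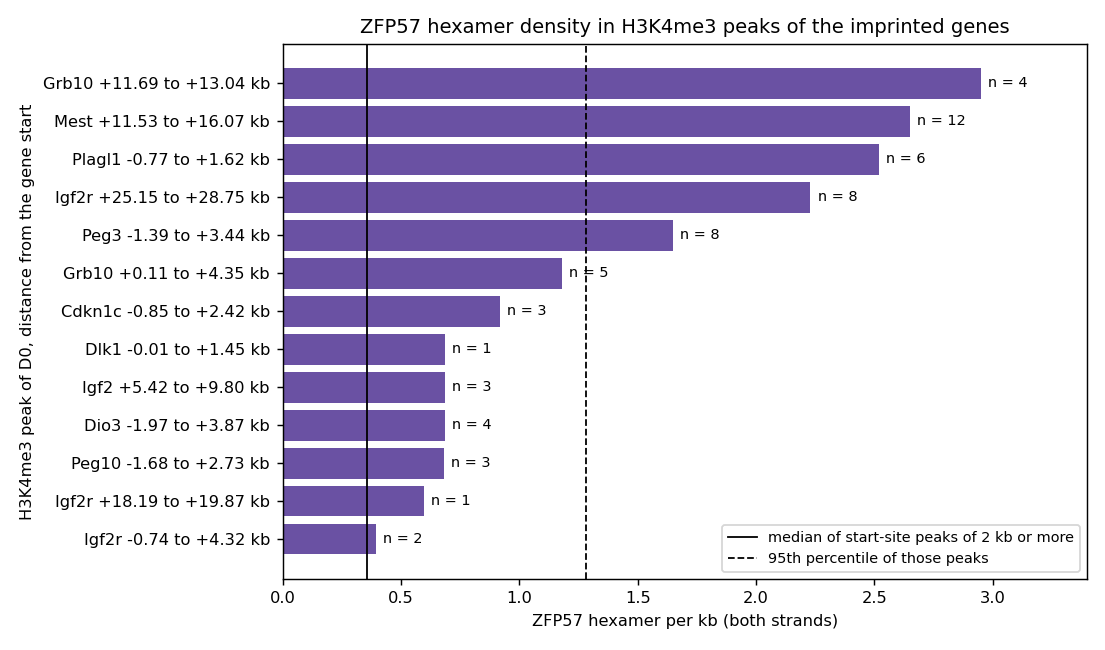
ZFP57 hexamers per kb in the D0 H3K4me3 peaks of the 10 genes that hold at least 1 (bars, with the number of matches), beside the median and the 95th percentile of start peaks of 2 kb or more (lines). The 5 peaks past the 95th percentile of 1.28 per kb are at Grb10, Mest, Plagl1, Igf2r and Peg3, and the Grb10 peak is shorter than 2 kb.

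Among 49 further imprinted genes or neighbours found in the annotation, 11 were higher and 17 lower in iPSCs than in D0 by H3.3 of the 40 with a peak (27.5% and 42.5% of these 40, 24.1% and 40.0% of all genes with a peak). The highest log2 ratios among those with peaks in both were 2.49 at Snrpn (45.9 against 8.16 tags) and 2.09 at Nespas (138 against 32.4), both at paternally expressed transcripts. The lowest were -5.95 at Osbpl5 (5.22 against 322) and -3.70 at Rian (10.8 against 141), a maternally expressed RNA of the Dlk1-Dio3 cluster. Meg3, the RNA next to Rian, which was picked out after its values had been seen, had 6.20 against 49.3 tags, with 6.71 in ESD3 and 79.6 in MEF. Rian had 6.94 in ESD3 and 96.5 in MEF, so both RNAs were lower in the pluripotent libraries than in either fibroblast library. Some windows of this wider list overlap each other or that of Igf2r, so the same peak can count for several genes. Airn and Igf2r had the same H3.3 sum in iPSCs (109.7 tags), and Nnat and Blcap the same in D0 (199.7). The list also holds RNAs that do not code for protein, while the shares of all genes cover protein-coding genes only. These limits hold for the counts of every mark.

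By H3K4me3 0 were higher and 29 lower of 46 (5.57% and 70.8% of all genes), with the lowest log2 ratios at Asb4 (-3.37) and Osbpl5 (-2.96) and the highest at Tspan32 (0.93) and Mcts2 (0.50). For H3K36me3 1 was higher and 29 lower of 30 (6.35% and 89.0% of all genes), with the lowest at Ube3a (-6.37) and Inpp5f (-5.25) and the highest at Zrsr1 (-1.55) and Commd1 (-1.97). The genes whose H3.3 over the 12 reprogramming libraries was most like that of Igf2r were Daam1 (Spearman rho 0.986), Susd1 (0.979) and Ralgps1 (0.972), out of 13123 genes compared, given as a description of libraries that differ in depth and enrichment.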

How the data were processed

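Peak lists of H3.3, H3K4me3 and H3K36me3 ChIP-Seq were analysed for 30 of 46 samples, and the 16 input libraries were not used on their own. Per the study's methods the authors mapped reads to mm9 with STAR, allowing 2 mismatches and 1 locus, and, per the file headers, called peaks per library against input with HOMER findPeaks in histone style; versions are not given in the sources used here. The deposited score is a signal, the normalized tag count per 10 M tags, not divided by length and with input not subtracted. The deposited fold over input is a ratio, at least 2 for H3.3 and 4 for the other marks. The deposited p-value, cut by the authors at 0.0001, rests on Poisson statistics. Of 1500134 peaks on the main chromosomes, 0 ended past the end of the reference chromosome.

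Peaks that overlapped the window of a gene of GENCODE vM1 (5 kb flanks) were summed in Python 3.11.15 with pandas 2.3.3. Exact 95% Poisson intervals and conditional binomial intervals of ratios (scipy 1.17.1) cover counting error only. With 1 library per group no test was made, and a gene was called different at 2-fold or a peak in 1 library only. The window sums and the ratio interval were tested on simulated data, and the 2-fold call was not. The genes and lists were chosen with earlier results of these data known. All 10 genes were named, with neighbours in their windows, the extreme 2 genes in each direction of a wider list of 51 names, and the 3 genes most like Igf2r. Tfcp2l1 and Spi1, among the marker genes, were not matched in the annotation. Alternatives changed the window, peak assignment, cutting, number of peaks, fold, scaling, measure and input.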

Additional observations from a re-analysis of the deposited data

How the results depend on the processing

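No paired analysis was possible because every group is 1 library; for the same reason no replicate could be left out. Of the counts of genes, 86 stayed within 1.5 times the main value and 26 moved; of the values of single genes 263 stayed, 95 moved and 7 reversed, where a gene that lost its peak in a library under a setting, such as Peg10, Mest and Plagl1 in iPSCs at a fold of at least 4, has no such value. The cause was not tested.

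Holding each list to the same number of best-scoring peaks gave 3 genes higher for iPSCs against D0, 2 lower for ESD3 against D0, 0 higher and 1 lower for iPSCs against ESD3, 4 higher for MEF against D0, and 2 lower by H3K36me3. A fold over input of at least 4 gave 1 higher (11.7%) and 5 lower (77.9%) for iPSCs against D0, and 0 lower for iPSCs against MEF (8.07%). It gave 1 higher for ESD3 against D0 (17.1%), and 1 higher (20.9%) and 5 lower (57.1%) for iPSCs against ESD3 (Igf2r log2 ratio -3.42). For MEF against D0 it gave 0 higher (1.07%) and 8 lower (98.1%). Scaling to the summed score gave 5 lower for iPSCs against MEF (28.4%) and 4 higher for ESD3 against D0 (26.2%, with Grb10 at 0.07). For MEF against D0 scaling gave 6 higher (16.2%) and 0 lower (32.4%). Scaling gave 1 lower by H3K4me3 (16.2%, with Dio3 0.41, Cdkn1c 0.24, Peg10 0.23, Igf2 0.08) and 2 lower by H3K36me3 (44.7%, with Igf2r 0.63, Mest 1.51). It moved the median log2 ratio of all genes for iPSCs against D0 from -0.51 to -0.06 for H3.3, from -1.37 to -0.12 for H3K4me3 and from -3.23 to 0.21 for H3K36me3. Covered kb gave 0 higher for ESD3 against D0 (13.9%), 7 higher for iPSCs against ESD3 (60.1%) and 3 lower by H3K4me3 (21.5%). Subtracting input gave 1 higher for ESD3 against D0 (14.2%) and 2 lower for MEF against D0 (76.6%). The gene body alone also gave 2 lower for MEF against D0 (67.3%).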
